A study of Rattus norvegicus with 11 samples.

Results

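The genes described here are the 150 that were most reduced in every P23H retina of the series, out of 12037 genes measured. P23H is a change in rhodopsin, the light receptor of rod photoreceptors, and rats that carry it as a transgene lose rods first and cones later. A gene was eligible if its mean over the wild-type retinas was at least 5 normalised CPM (reads scaled to the size of the library) and if the ranges of the DMSO and halofantrine values overlapped. Eligible genes were then scored by the log2 ratio of the lowest wild-type value to the highest of the 9 P23H values, with 0.5 added to each, and the 150 highest scores were taken. The genes were thus chosen by their measured levels in WT and P23H retinas. Every retina of the series entered the choice, so the reduction from wild type is given below as a description, and nothing is drawn from fits of these genes against WT.

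All animals were female rats, with 1 retinal library each. The 9 P23H retinas came from the hemizygous line P23H-1 crossed with Long Evans (P23HxLE). These animals received injections into the vitreous of both eyes, with DMSO alone in 5 and with halofantrine, an antimalarial drug, in 4. The labels give the injected concentration only as a range, and the age at which these retinas were taken was not given in the sources used here. The 2 wild-type (WT) retinas were of the cross SDxLE, were not treated, and carry an L at the end of their titles where P23H titles carry an R. Genotype, cross, injection and this letter cannot be told apart in any comparison with WT.

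A whole retina contains rods, cones, the interneurons and ganglion cells that carry their signals, and glia. Rods are by far the most numerous photoreceptors in the rat, and transcripts that only they make are therefore a large part of retinal RNA. When photoreceptors die, such transcripts make up less of the RNA, while those of the surviving cells make up more. In bulk retina, fewer cells of a type and less RNA per cell cannot be told apart. The files do not pair Ensembl identifiers with gene symbols, and 0 identifiers could be matched through the reference table used here. The identity of the genes, the level of rhodopsin itself and the markers of retinal cell types were therefore not analysed here, and genes are called by their rank in the score.

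Libraries held between 11685202 and 34198536 estimated counts in genes, and the WT libraries held 18194941 and 12760768. P23H DMSO replicate 3 stood apart from the other P23H retinas for these genes, so results that rest on it are given with and without it. P23H halofantrine replicate 1, which is also unlike the rest of its group over all genes, is treated in the same way where it changes a value.

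Of 12037 genes, 11573 had a WT mean of at least 5 normalised CPM, and 11240 of these had overlapping DMSO and halofantrine ranges. Both WT values were above all 9 P23H values in 2362 of the eligible genes, which is 21.0%, and the reverse held for 1560 (13.9%). The 150 genes are thus the top of a broad set of lower genes, with no gap at its edge. Scores ran from 3.36 for the first gene to 0.93 for the last, with a median of 1.16. The last gene had a lowest WT value of 589 and a highest P23H value of 308 normalised CPM, and the next gene in order, which was left out, had 412 and 217, a score of 0.93. Without the condition on overlap, 5 genes whose DMSO and halofantrine ranges are separate would have been among the first 150.

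Averaged over the 9 P23H retinas, the genes stood at a median of 30.9% of their WT mean, with quartiles at 24.1% and 37.0%. Reductions to under 10% of WT were found in 5 genes. A further 15 genes lay between 10% and 20%, 47 between 20% and 30%, 61 between 30% and 40%, and 22 at 40% or above. The deepest reduction left 2.46% of the WT mean and the mildest left 46.8%. WT means ran from 9.54 to 14639 normalised CPM, and 78 of the genes had a WT mean of at least 100. Most of the set was therefore well covered by reads before and after the reduction, and the P23H mean was under 1 normalised CPM in 1 gene and under 5 in 28. No gene was at 0 in any library. The lowest count was 1 in a P23H library and 102 in a WT library.

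The WT retinas agreed closely for these genes. The score uses the lower WT value, so such agreement is favoured by the choice of genes. The matching ratio over all eligible genes was not computed. The higher WT value was a median of 1.08 times the lower one, and WT replicate 1 was the higher in 101 of 150 genes. The widest difference was 2.08 times, in the gene of rank 8.

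**Figure D1:**
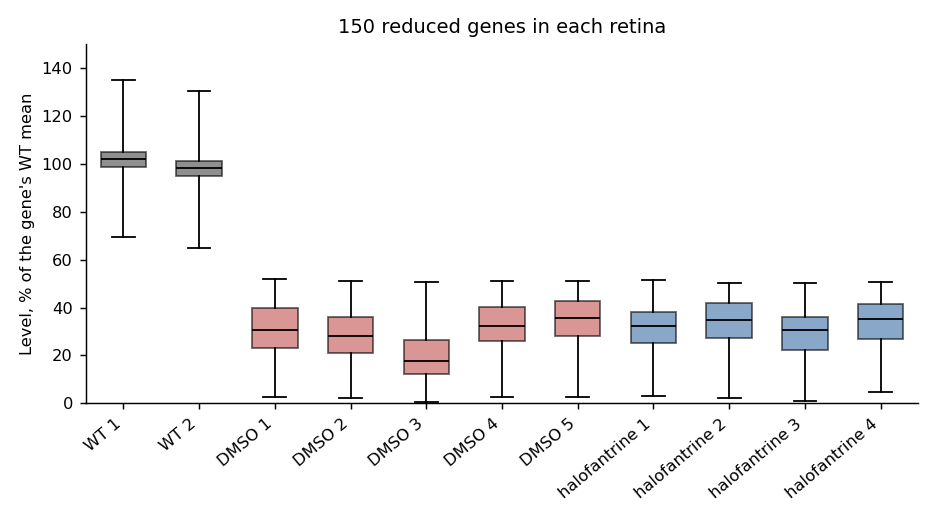
Level of the 150 genes in each retina, as a percentage of each gene's WT mean (boxes show quartiles, the line the median, whiskers the full range). Medians of the 9 P23H retinas lay between 17.8%, in DMSO replicate 3, and 35.8%, in DMSO replicate 5.

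Looked at retina by retina, the median gene stood at 30.8%, 28.2%, 17.8%, 32.4% and 35.8% of WT in DMSO replicates 1 to 5. In the halofantrine retinas the corresponding values were 32.3%, 34.98%, 30.7% and 35.2%. DMSO replicate 3 was the lowest of all, and the other 8 P23H retinas lay close together with no separation between the treatments. Each gene was required to have overlapping DMSO and halofantrine ranges, so a lack of separation is favoured by the choice of genes. Group means of these medians were 29.0% ± 6.82 (SD, n = 5) with DMSO and 33.3% ± 2.16 (SD, n = 4) with halofantrine. Without DMSO replicate 3 the DMSO mean was 31.8% ± 3.19 (SD, n = 4).

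The genes together took 6.91% and 6.52% of all gene counts in the WT libraries. In P23H they took 1.07% in DMSO replicate 3 and between 1.89% and 2.61% in the other DMSO retinas, and between 2.17% and 2.60% with halofantrine. The gene of rank 36 held the largest part of these counts. Without it the shares were 5.51% and 5.26% in WT, 1.00% to 2.15% with DMSO and 1.84% to 2.12% with halofantrine, so the drop in share did not rest on that gene.

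The first gene by score was ENSRNOG00000081458, which was nearly silent in the mutant. Its level was 16.4 and 11.5 normalised CPM in the WT retinas. With DMSO it was 0.492, 0.312, 0.0503, 0.341 and 0.361 in replicates 1 to 5, and with halofantrine it was 0.433, 0.309, 0.118 and 0.677. All 9 P23H retinas were far below both WT retinas, and between 1 and 13 counts stood behind each P23H value. The group means were 14.0 ± 3.47 in WT (SD, n = 2), 0.311 ± 0.161 with DMSO (SD, n = 5) and 0.384 ± 0.234 with halofantrine (SD, n = 4). At such low counts, differences among the P23H retinas are of the order of counting error.

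ENSRNOG00000078231 came second and kept a low but measurable level. WT values were 16.9 and 18.0 normalised CPM. The DMSO values were 2.47, 1.75, 1.01, 1.78 and 2.04, and those with halofantrine were 2.16, 2.05, 2.20 and 1.82. DMSO replicate 3 was again the lowest, and the other 8 P23H values spanned a narrow range.

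**Figure D2:**
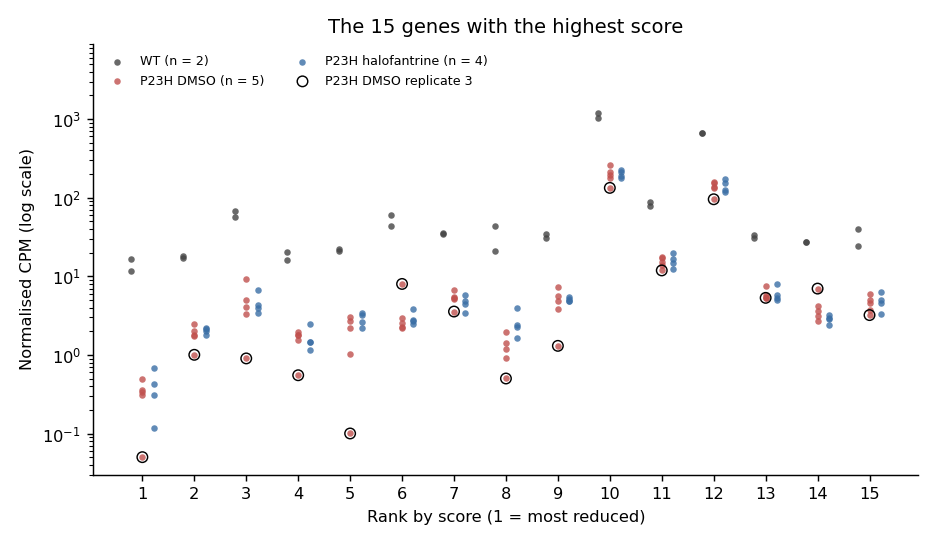
Normalised CPM (log scale) of the 15 genes with the highest score, 1 point per retina, with P23H DMSO replicate 3 circled. In each gene both WT retinas lie above all P23H retinas, as the choice of genes requires, and DMSO replicate 3 is the highest P23H value for the genes of ranks 6 and 14.

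Among the 15 genes with the highest score, the P23H mean was between 2.46% and 21.0% of WT. Rank 3 had 66.9 and 56.6 normalised CPM in WT. Its DMSO values were 3.37, 4.10, 0.905, 5.04 and 9.28, and its halofantrine values were 6.69, 4.33, 3.37 and 3.92. The DMSO range enclosed the halofantrine range.

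Rank 6 went the other way in DMSO replicate 3. WT levels were 43.8 and 60.5 normalised CPM, and 8 of the 9 P23H retinas lay between 2.17 and 3.79. DMSO replicate 3 was at 8.01, the highest P23H value and the one that set the score of this gene. The same retina was the highest P23H value, at 6.99 against 2.42 to 4.16, for the gene of rank 14, whose WT values were 27.7 and 27.2.

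The most unequal WT retinas were those of the gene of rank 8, at 43.1 and 20.8 normalised CPM. DMSO values were 0.904, 1.43, 0.503, 1.20 and 1.94, and halofantrine values were 3.96, 2.44, 1.66 and 2.30. All P23H values were under the lower WT value by a wide margin.

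The genes of ranks 10 and 12 show the same reduction at levels where counting error is small. For rank 10, WT values were 1184 and 1035 normalised CPM, DMSO values ran from 133 to 262 and halofantrine values from 180 to 225. Rank 12 had 660 and 665 in WT, 95.5 to 160 with DMSO and 117 to 175 with halofantrine. In both genes the lowest value was that of DMSO replicate 3, and the halofantrine range lay largely inside the DMSO range.

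The steadiest genes in the P23H retinas were those of ranks 62, 58 and 133, with standard deviations of 0.09 to 0.11 on the log2 scale over the 9 retinas. Rank 62 had 318 and 307 normalised CPM in WT. It had 126, 121, 121, 123 and 128 with DMSO and 106, 130, 130 and 116 with halofantrine. DMSO replicate 3 did not stand apart for this gene, and a stable level of 39.2% of WT was present in all P23H retinas. Over the whole set the median standard deviation was 0.35, against 0.23 for the 11240 eligible genes. Without DMSO replicate 3 and halofantrine replicate 1 these medians were 0.21 and 0.16.

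The most variable were the genes of ranks 138, 5 and 36. For rank 36, WT values were 15454 and 13824 normalised CPM. DMSO retinas had 1972, 1909, 750, 3263 and 4636, and halofantrine retinas had 3137, 4253, 3983 and 4783. All 9 were under the lower WT value, and DMSO replicates 4 and 5 lay within the halofantrine range. For rank 5, DMSO replicate 3 was at 0.101 and the other P23H retinas at 1.03 to 3.43, against 22.3 and 21.3 in WT.

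Rank 138 was again raised in DMSO replicate 3, at 13.4 normalised CPM, where the other 8 P23H retinas had 0.965 to 3.18 and WT had 36.6 and 26.3. That retina alone set the score of this gene.

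DMSO replicate 3 was then examined over the whole set. It held the lowest of the 9 P23H values in 113 of 150 genes. Relative to the mean log2 level of the other 4 DMSO retinas, 133 genes were lower and 17 higher, with a median ratio of 0.604. On the log2 scale this median was -0.73, against -0.004 over all eligible genes. The shares of all eligible genes for the counts of 113, 133 and 17 were not computed. In 45 genes (30%) it was over 2-fold below that mean, where the share among all eligible genes was 2.04%. Over 2-fold above it were 3 genes, those of ranks 6, 132 and 138, where the share among all eligible genes was 7.52%. This retina also differed from the others over all genes, as the share of eligible genes over 2-fold above shows. The score uses only the highest P23H value and so does not ask for a low value in this retina. It does lower the score of genes that are high there, so a small number over 2-fold above is favoured by the rule. The split of 133 to 17 and the median ratio are tilted toward lower values in the same way, to an extent not examined. All values come from the libraries that chose the genes, and the difference was not tested.

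**Figure D3:**
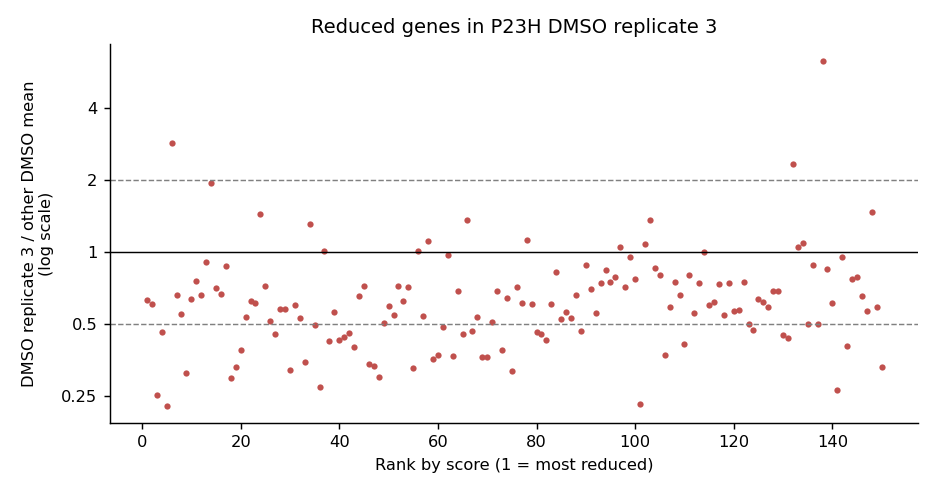
Ratio of P23H DMSO replicate 3 to the mean of the other 4 DMSO retinas (log scale, computed with 0.5 added) for each of the 150 genes, in order of score. Most points lie below 1 (solid line), 45 lie below 0.5 and 3 above 2 (dashed lines).

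The further reduction in that retina was present throughout the order of scores. In the first 50 genes the median level was 22.2% of WT in the other DMSO retinas and 12.4% in DMSO replicate 3. The next 50 genes had 34.8% and 21.3%, and the last 50 had 39.0% and 24.8%. Genes of ranks 151 to 300, just outside the set, had 47.4% and 31.8%, so the further loss did not stop at the edge of the set. With halofantrine the medians of these 4 bands were 23.6%, 35.3%, 39.6% and 47.5%, close to those of the DMSO retinas without replicate 3.

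Halofantrine replicate 1 was closer to its group for these genes. It was lower than the mean of the other halofantrine retinas in 79 genes and higher in 71, with 2 genes over 2-fold below it (1.33%, against 1.45% of all eligible genes) and 1 over 2-fold above it, where the share of eligible genes was 1.87%. Rank 45 was at 49.6 normalised CPM in this retina and at 106 to 146 in the other 3. Rank 31 was the exception in the other direction, at 6.97 against 1.93 to 2.73, with 21.9 and 26.3 in WT.

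**Figure D4:**
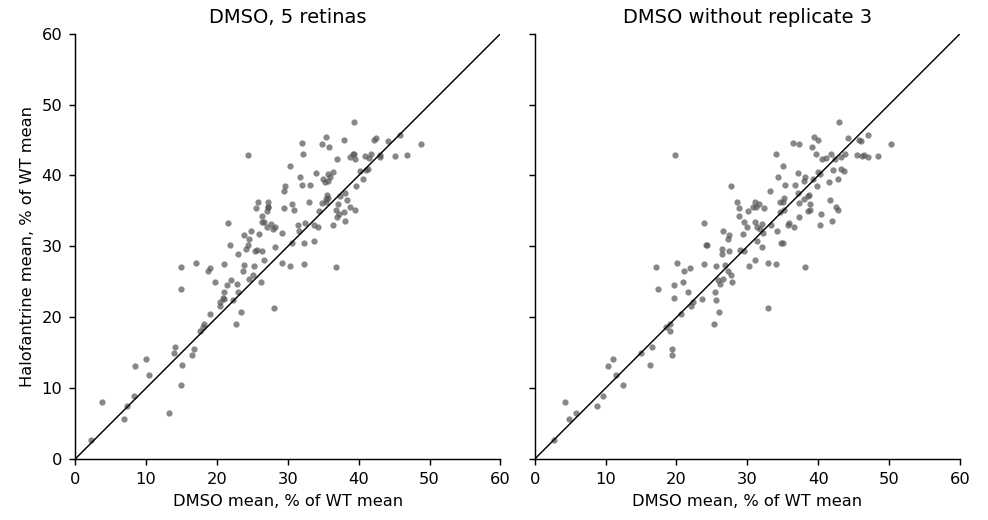
Mean level with halofantrine (4 retinas) against mean level with DMSO, both as a percentage of the WT mean, for the 150 genes, with all 5 DMSO retinas on the left and without DMSO replicate 3 on the right. The line marks equal levels, and the median difference falls from 0.13 to 0.00 on the log2 scale without that retina, while single genes such as that of rank 132 move further from the line.

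The difference between halofantrine and DMSO in the chosen genes was small and depended on DMSO replicate 3. With all retinas, 113 of 150 genes (75.3%) had a higher mean log2 level with halofantrine than with DMSO, where the share among all eligible genes was 46.2%. The median difference over the set was 0.13 on the log2 scale, or 1.097-fold, against -0.02 over all eligible genes. Without DMSO replicate 3, 76 genes were higher and 74 lower, the share among all eligible genes was 45.4%, and the median difference was 0.00. With halofantrine replicate 1 left out as well, 79 were higher and 71 lower, and 47.2% of all eligible genes were higher. The higher levels with halofantrine thus rested on 1 DMSO retina. Genes with separate DMSO and halofantrine ranges were left out by the rule, so the set could not hold them. The score also falls with any high P23H value, so genes raised toward WT with halofantrine were less likely to enter. A small difference is thus favoured by the choice of genes.

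In the edgeR quasi-likelihood fit across 12031 genes, none of the 150 genes passed an adjusted p of 0.05 for halofantrine against DMSO. Genes with separate ranges for the treatments had been left out of the set, so that few or no calls follow from the rule itself. At the same threshold 0.00831% of all genes were called higher and 0% lower. At an unadjusted p under 0.05 there were 6 of the 150 genes by edgeR and 1310 of the 12031 genes. Limma-voom called 0 of 150 and DESeq2 0 of the 149 that it tested, with 7 and 10 at an unadjusted p under 0.05, where 1165 of 12031 and 1374 of 11719 genes passed it. The fitted median over the 150 genes was 0.10 on the log2 scale, against -0.03 over all genes tested.

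For comparison with WT, the fit gave a median log2 fold change of -1.72 over the set with DMSO and -1.55 with halofantrine, against 0.04 and 0.05 over all genes tested. All 150 genes were called lower with DMSO and 145 with halofantrine, where 10.3% and 7.58% of all genes were called lower. None of the 150 was called higher, where the shares of all genes were 10.9% and 5.55%. With 1 WT library left out, 127 or 124 genes were called lower with DMSO and 75 or 82 with halofantrine (without WT replicate 1 or 2). In the same fits 419 or 362 of 12032 genes were called lower with DMSO and 175 or 162 with halofantrine. The outcome of these fits was fixed by the choice of genes on the same libraries, so the calls are no test and nothing is read from them or from the shares beside them. Both comparisons share the WT retinas. The fitted median stayed between -1.86 and -1.65 with DMSO and between -1.61 and -1.52 with halofantrine over the 18 settings tried, for the genes each of them tested.

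A few genes differed more between the treatments than the rest. The largest fitted differences toward halofantrine were those of ranks 8, 80 and 132. Rank 132 was at 213 and 220 normalised CPM in WT. Its DMSO retinas fell into separate levels, with 33.98, 29.3 and 30.8 in replicates 1, 4 and 5 and with 77.4 and 92.2 in replicates 2 and 3. The halofantrine retinas, at 109, 98.3, 76.9 and 86.9, all lay at the higher level. This was the only gene of the set with a step of at least 2-fold between neighbouring P23H values and at least 2 retinas on either side, a pattern held by 0.721% of eligible genes.

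Rank 80 had 2.93, 5.96, 1.77 and 5.68 normalised CPM with halofantrine and 2.30, 1.83, 0.905, 3.10 and 3.12 with DMSO, against 16.4 and 13.8 in WT. Its halofantrine retinas were split, with replicates 2 and 4 above every DMSO value and replicates 1 and 3 among them. On the opposite side were the genes of ranks 138, 14 and 84. Rank 84 had 16.5, 14.5, 9.07 and 9.32 with halofantrine and 14.2 to 20.1 with DMSO, against 44.6 and 46.7 in WT. Here halofantrine replicates 3 and 4 were below all DMSO retinas. As a difference of mean log2 levels, halofantrine minus DMSO, rank 138 was at -0.40 with all retinas and at 0.13 without DMSO replicate 3, so its direction turned. Rank 14 was at -0.39 and -0.20, and rank 84 at -0.46 and -0.52. On the other side, rank 132 was at 0.97 and 1.22, rank 8 at 0.88 and 0.71, and rank 80 at 0.69 and 0.47.

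The transcript table was used to ask whether all transcripts of a gene were reduced together. Ensembl transcripts of 1 gene stand next to each other in that table, and each gene was matched to the run of transcripts whose counts sum to the gene's count in all 11 libraries, within 0.1 counts. A single run was found for 12027 of 12037 genes and for all 150 genes of the set, with 0 transcripts claimed by more than 1 gene. In the set, 54 genes had 1 detected transcript, 44 had 2 and 52 had more, up to 10. Gene counts that were not whole occurred in 65 of the 150 genes (43.3%) and in 35.6% of all genes. The gene of rank 2 had them with 1 detected transcript, so they do not measure the split between transcripts of a gene. Both that split and the levels of such genes are estimates.

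Of 300 transcripts with a WT mean of at least 1 normalised CPM, 250 were lower in all 9 P23H retinas than in both WT retinas, 50 had overlapping ranges, and 0 were higher in all P23H retinas. The P23H mean was at most 50% of WT in 265 of these transcripts, and the median was 30.3%, near the value for whole genes. In 84 genes at least 2 transcripts reached that level, and in 48 of them every such transcript was lower in all P23H retinas. The genes were chosen for WT values above all P23H values, so these counts and the median largely follow from that choice. The matching shares among transcripts of all genes were not computed. Among these transcripts, 1 with a higher mean in P23H than in WT was found in each of 8 genes. The largest by level was a transcript of the gene of rank 136, with a WT mean of 22.3 normalised CPM and a P23H mean of 35.9, but its range in P23H, from 4.50 to 74.6, enclosed the WT values. A further 11 transcripts of the set had a WT mean under 1 normalised CPM and a P23H mean of at least 1, and so were not among the 300. The highest of these in P23H was a transcript of the gene of rank 88, with a mean of 0.276 in WT and 8.68 in P23H, where it reached 24.8 in 1 retina. For rank 24 the means were 0.0017 and 1.66, and for rank 8 the WT retinas were at 0 and the P23H mean was 1.41. For ranks 8 and 24 the lowest P23H value of these transcripts was 0. By mean level, some transcripts of the reduced genes were thus not lower in P23H. These are estimated splits, and of the 300 transcripts 0 were higher in all P23H retinas.

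**Figure D5:**
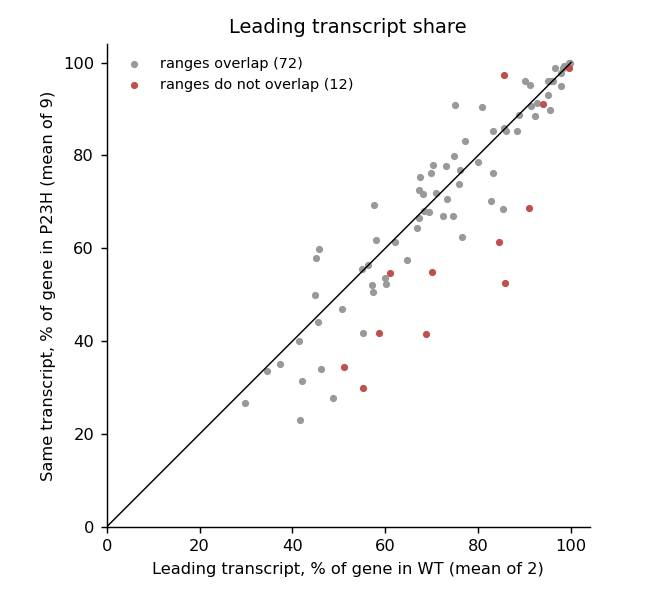
Share of the gene's counts taken by the transcript that led in WT, in WT (mean of 2) and in P23H (mean of 9), in percent, for 84 genes with at least 2 transcripts of at least 1 normalised CPM in WT. The 12 genes whose WT and P23H ranges do not overlap are in red, 11 of them below the line of equal share.

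The transcript that led in WT also led in the P23H mean in 75 of these 84 genes (89.3%), against 89.1% of all genes with as many transcripts. Its share of the gene changed by a median of 3.89 percentage points, against 4.45 in all such genes. In 12 of the 84 genes (14.3%) the share did not overlap between WT and P23H, where the background was 12.2%. In 11 of the 12 it was lower in P23H. Because the leading transcript was chosen in WT, a lower share elsewhere is favoured by that choice, in the set and in the background alike.

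In 4 of these 12 genes another transcript led in the P23H mean, those of ranks 10, 11, 55 and 120. For rank 11 the WT leader took 53.7% and 56.4% of the gene in WT and 19.8% to 39.5% in P23H, with means of 26.4% with DMSO and 34.5% with halofantrine. For rank 120 it took 65.8% and 71.8% in WT and 19.3% to 47.8% in P23H. Rank 10 showed a smaller separation, with 49.3% and 53.1% in WT and 17.5% to 48.3% in P23H. The exception in direction was the gene of rank 58, 1 of the steadiest in total level, whose leading transcript took 83.1% and 88.0% in WT and 89.1% to 100% in P23H.

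The variation of the set among the P23H retinas rested largely on DMSO replicate 3. The first principal component over the 9 retinas held 67.2% of the variance of the 150 genes on the log2 scale, against 42.1% for all eligible genes. DMSO replicate 3 alone held 55.3% of the variance of the set and 36.5% of that of all eligible genes. Without DMSO replicate 3 and halofantrine replicate 1, the first component held 43.0% for the set, close to the 41.6% for all eligible genes. Leaving out each of these retinas alone was not examined for this measure.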

How the data were processed

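Retinal polyadenylated RNA was sequenced with strand-specific libraries, 1 per animal. Per the labels and the study's methods, the authors assigned reads to rat Ensembl transcripts (version 115) with kallisto and summed them to genes with tximport. The deposited gene and transcript tables hold estimated counts with no scaling for depth. A table deposited by the authors holds a normalised signal, in which every gene of a library had been scaled by the same factor, and its values are called normalised CPM here. The gene table had been filtered by a rule not given in the sources used here. A table with the authors' own comparison of halofantrine with DMSO (log2 fold changes and p-values) was not used.

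Groups came from the labels. Replicates were numbered in order of deposition. Nothing in the labels says more of how animals were assigned. The p-values set a difference between groups against the spread between these samples. WT, with 2 libraries, shared its estimate of spread with the P23H groups. The 150 genes, and all lists and tests, were chosen with earlier results of these data known. Levels and scores were taken from the normalised table in Python 3.11.15. Counts were rounded to whole numbers and fitted with edgeR 4.0.16 in R 4.3.3 (filterByExpr, which removed 6 genes, TMM factors, quasi-likelihood F test, 11 libraries in a single fit), with Benjamini-Hochberg adjustment over 12031 genes. The fit was checked on simulated counts. Limma-voom (limma 3.58.1), DESeq2 1.42.0, DESeq2 size factors, other filters, other forms of the score and each library left out were alternatives. Leaving out both outlying libraries was added after the data had been seen. Every 2 libraries of a group differed by more than counting noise (chi-square per degree of freedom 6.87 or higher), so each counted as 1 replicate.

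Named genes were those with the 15 highest scores, those at the edge of the set, and the 3 most extreme for the difference between treatments in either direction, for the spread over P23H retinas and for the deviation of each outlying library. The 2 first are given by identifier. Gene lists and cell type markers fixed by symbol, and promoter sequences, could not be joined to the identifiers and were not analysed here.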

Additional observations from a re-analysis of the deposited data

Results flagged for a closer look

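A retina far from the rest of its treatment group was looked for in 34 sets of values: the median level of the 150 genes, their share of counts, and the 15 genes with the highest score, each in the DMSO and in the halofantrine group. This held in 3 sets, for 2 different retinas, and about 1 in 20 sets, or 1.7 here, would be picked out by chance. P23H DMSO replicate 3 was low for the gene of rank 4, at 0.553 normalised CPM where the other DMSO retinas had 1.56 to 1.96. It was high for the gene of rank 6, at 8.01 against 2.17 to 2.93. P23H DMSO replicate 1 was high for the gene of rank 13, at 7.47 against 5.31 to 5.72. For the median level of the 150 genes and their share of counts, no retina was picked out, DMSO replicate 3 included.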

How the results depend on the processing

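Membership of the set was stable. Of the 150 genes, 143 to 150 were kept under other scalings, added constants, minimum WT means or no condition on overlap, 120 when group means replaced the lowest and highest values, and 132 to 149 when 1 library was left out. Counts of genes called depended on the libraries included. For DMSO against WT, 2548 genes were called, with 519 to 3646 when 1 library was left out. The counts were 519 and 611 with 1 WT library left, which was assumed to vary like the other groups. For halofantrine against WT, 1580 were called, with 211 to 3588 when 1 library was left out (3588 without DMSO replicate 3, 2787 without halofantrine replicate 1, 890 and 892 without halofantrine replicate 3 or 4, and 232 and 211 without WT replicate 1 or 2), 1024 by limma-voom and 2491 by DESeq2. For halofantrine against DMSO, 1 gene was called, with 0 to 2 when 1 library was left out, 0 in the 9 P23H libraries alone and 34 by DESeq2. Without both outlying libraries the 3 counts were 5387, 5472 and 2. The median difference between halofantrine and DMSO over the set was 0.10 on the log2 scale, 0.01 without DMSO replicate 3, and 0.01 to 0.17 over all libraries left out in turn. For the 32 named genes, all 1082 values against WT recomputed under the alternatives were negative. That sign was fixed by the choice of genes on the same libraries, so nothing is read from it. Of 1654 values in all, 19 moved by more than the spread over the P23H retinas. The counts for gene lists and the promoter motifs were not run, since identifiers could not be joined to symbols. No paired analysis was possible because the labels give no replicate numbers that groups share. Depth limits the first gene, with 1 to 13 counts per P23H library.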
